A study of Mus musculus with 6 samples.

Results

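Glutamine and glutamate metabolism and transport was described here by 9 genes: *Glul*, *Glud1*, *Got1*, *Got2*, *Gpt2*, *Slc1a3*, *Slc1a4*, *Slc1a5* and *Slc38a1*. They were chosen by name, with earlier results of these data known. All 9 symbols matched an Ensembl gene identifier among the 24016 genes of the deposited expression table. RNA-seq was performed on 3 vehicle-treated and 3 corticosterone-treated cultures of MC3T3-E1 subclone 4, a wild-type mouse preosteoblast line able to lay down mineralizing matrix. Differentiation lasted 6 days in all cultures, with β-glycerophosphate at 10 mM and ascorbic acid at 50 μg/ml, in medium with 2 mM L-glutamine and 10% FBS. The treatment was 100 nM corticosterone, the main glucocorticoid of mice, or vehicle for 24 h, and the labels of all 6 samples also list 10 nM calcitriol, the active form of vitamin D. A clonal line stands here for osteoblasts, and the labels give passages 4 to 10 in one field and 6 to 12 in another.

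Glutamine is the most abundant free amino acid in plasma and supplies nitrogen for nucleotides, asparagine and amino sugars as well as carbon for the citric acid cycle. Glutamine synthetase, encoded by *Glul*, joins glutamate and ammonia to make it. Glutamate is turned into α-ketoglutarate by glutamate dehydrogenase or by aminotransferases, which pass its amino group to other carbon skeletons. In osteoblasts, uptake of glutamine and neutral amino acids is known to serve protein and matrix production, and carriers of the SLC1 and SLC38 families bring in glutamate and glutamine. *Glul* is a long-known target of glucocorticoids in muscle, lung and other tissues.

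The proximal promoters of the genes with the largest changes among those with a promoter sequence are printed to show the sequence context of genes that moved in opposite directions. RefSeq (build GRCm38.p6) gave a promoter for 7 of the 9 genes (all but *Slc1a5* and *Slc38a1*), and those of *Glul* (chr1:153899679-153899928, plus strand), *Slc1a3* (chr15:8710808-8711057, minus strand) and *Slc1a4* (chr11:20332714-20332963, minus strand) are shown as the 250 bases before the start of transcription, 5′ to 3′. Capitals mark a match to a searched motif.
*Glul*: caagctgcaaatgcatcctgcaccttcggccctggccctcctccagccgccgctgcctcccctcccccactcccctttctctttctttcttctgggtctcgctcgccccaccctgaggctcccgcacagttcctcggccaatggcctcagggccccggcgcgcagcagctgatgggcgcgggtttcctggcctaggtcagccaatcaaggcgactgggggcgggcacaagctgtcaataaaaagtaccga
*Slc1a3*: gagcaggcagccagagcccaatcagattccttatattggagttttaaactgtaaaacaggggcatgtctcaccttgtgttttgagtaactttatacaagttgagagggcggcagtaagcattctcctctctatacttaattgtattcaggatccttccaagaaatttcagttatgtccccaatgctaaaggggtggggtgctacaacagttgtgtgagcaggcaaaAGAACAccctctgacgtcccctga
*Slc1a4*: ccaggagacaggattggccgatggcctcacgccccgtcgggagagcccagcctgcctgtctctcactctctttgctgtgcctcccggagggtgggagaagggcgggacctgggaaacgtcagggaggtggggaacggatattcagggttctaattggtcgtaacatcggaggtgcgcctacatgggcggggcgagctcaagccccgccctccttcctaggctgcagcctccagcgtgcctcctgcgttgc
Both strands of the 7 promoters were searched for the glucocorticoid response element as GNACANNNTGTNC, for its half-site AGAACA, which a response element can contain, and for the composite element of ATF4, the transcription factor of amino acid shortage, as TGATGNAA. The half-site was found once, 24 to 19 bases before the start of *Slc1a3*, and 16.1% of 32851 mouse promoters of the same length hold it. The ATF4 element was found once, 102 to 95 bases before the start of *Got1*, against 3.45% of all promoters. The full response element, present in 0.387% of all promoters, had no match in these windows. The *Slc1a3* window was poor in CpG, with 2 CpG dinucleotides and 44.8% G and C, whereas the windows of *Glul* and *Slc1a4* held 15 and 16 with 64.8% G and C each. The median over all promoters was 6 CpG dinucleotides.

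The values are called normalized counts here, since within each library every deposited value was a whole multiple of the value of 1 read. The reads counted on genes numbered 16020401 to 25638645 in a library, and all 3 corticosterone libraries were shallower than the 3 vehicle libraries. Libraries of the same treatment differed by more than sampling noise, and vehicle replicates 1 and 2 differed most (chi-square of 12.2 per degree of freedom over genes, against 3.38 to 5.85 for the other pairs). All 10 osteoblast markers were present, and 9 of them, *Runx2* and *Sp7* among them, were lower and 1 was higher after corticosterone. Of 5 markers each, 1 had a value for adipocytes, 2 for macrophages, 2 for skeletal muscle and 3 for endothelium, and they summed to at most 62.4 normalized counts per cell type and library. Of 5 astrocyte markers, 4 had a value. The calcium-binding protein gene *S100b* had a normalized count of 639 ± 59.7 with vehicle and 379 ± 41.4 with corticosterone (SD, n = 3 each). *Slc1a2* had 33.1 ± 4.64 and 17.5 ± 11.7 (SD, n = 3 each), and *Aldh1l1* and *Gfap* had at most 10 and 4 reads in a library. The part of these marker changes in the results below was not tested.

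After corticosterone, 5 of the 9 genes were higher and 1 was lower. *Glul*, which makes glutamine, rose 3.81-fold, and the neutral amino acid carriers *Slc1a5* and *Slc1a4* rose 1.53-fold and 1.37-fold. The cytosolic and mitochondrial aspartate aminotransferases *Got1* and *Got2* rose 1.17-fold and 1.19-fold, whereas the glutamate carrier *Slc1a3* fell by 51.1%. *Glud1*, *Gpt2* and *Slc38a1* did not pass the test. Groups were compared with limma on log2(normalized count + 0.1), p-values were adjusted by Benjamini and Hochberg across the 24016 genes, and an adjusted p under 0.05 was the call. Of all genes, 8.49% were called higher and 8.2% lower, and 16.7% were called in either direction. In a separate limma fit of the 13880 genes with a mean normalized count of at least 10, adjusted across those genes only, 31.1% were called. That fit held 8 of the 9 genes, of which 5 were called higher and 1 lower. A log2 fold change beyond 1 in size was also required for a stricter call, which *Glul* passed among the higher genes (1.38% of all genes) and *Slc1a3* among the lower (1.4%), 2.78% in both directions together. The median log2 fold change of the 9 genes was 0.22, and that of all genes was -0.013.

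**Figure D1:**
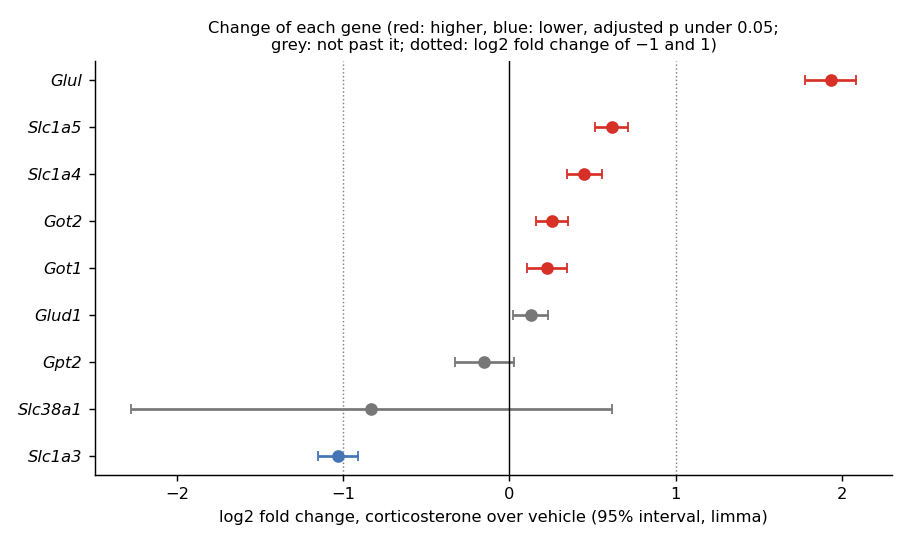
Log2 fold change of each of the 9 genes after corticosterone (x axis, points) with its 95% interval from limma (bars), one gene per line. *Glul* lies at 1.93, the other called rises lie between 0.22 and 0.61, *Slc1a3* lies at -1.03, and the interval of the sparsely counted *Slc38a1* reaches from -2.27 to 0.61.

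*Glul* (ENSMUSG00000026473, chromosome 1, 153899944 to 153909723 of GRCm38, plus strand) had normalized counts of 587, 488 and 616 in the vehicle libraries. In the corticosterone libraries it had 2136, 2093 and 2189. Every corticosterone library exceeded every vehicle library by more than 3-fold, and the vehicle libraries spread more than the corticosterone libraries around their means of 564 ± 67.4 and 2139 ± 48.0 (SD, n = 3 each). The log2 fold change was 1.93 ± 0.07 (SE, adjusted p = 1.59e-11 by limma), with a 95% interval of 1.78 to 2.09. With any one library left out it stayed between 1.83 and 2.00. At least 596 reads stood behind each value. In bulk RNA, more transcript per cell and more cells with the transcript cannot be told apart. Among the 13880 genes with a mean of at least 10, *Glul* ranked 87th by the size of its rise.

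**Figure D2:**
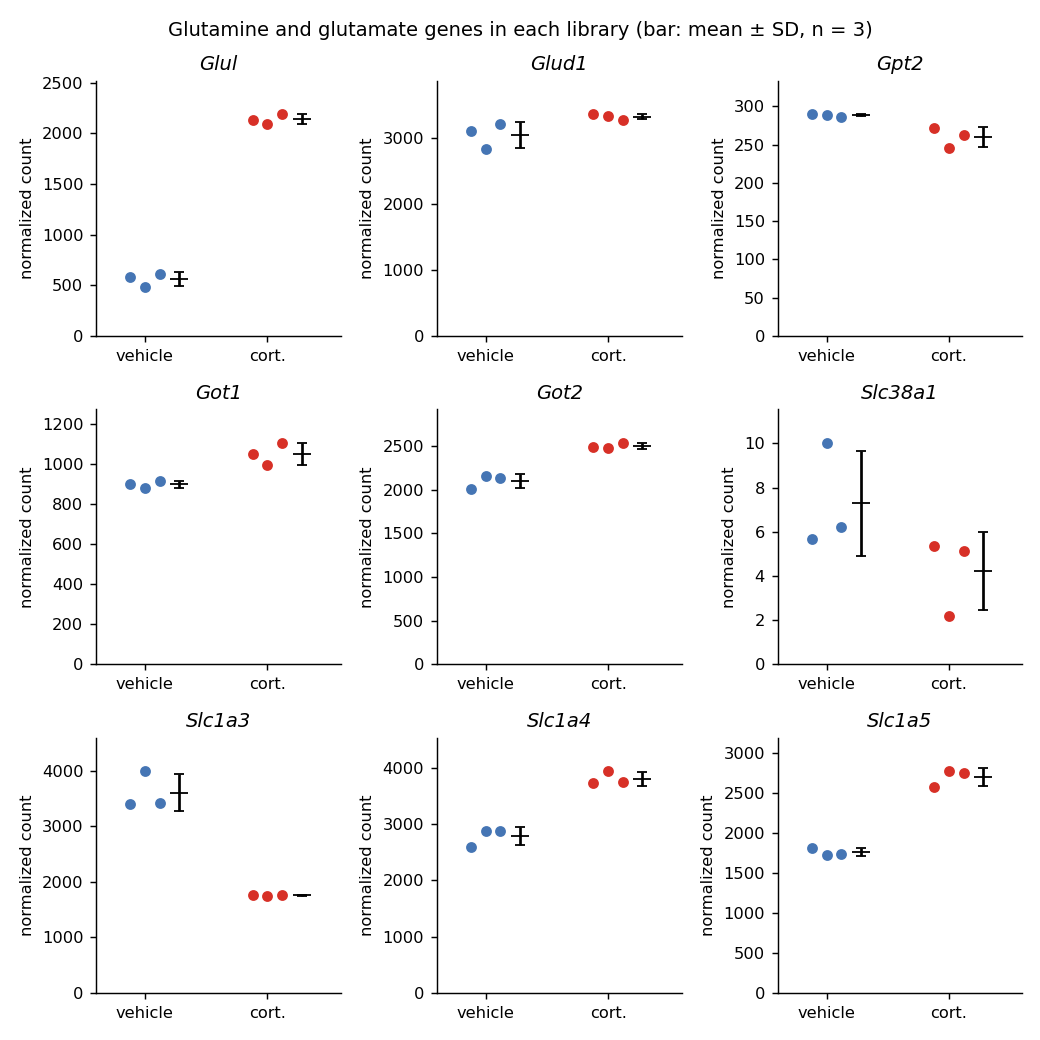
Normalized count of each of the 9 genes in every library, 1 panel per gene with its own axis from 0, for vehicle (blue) and corticosterone (red), with the mean ± SD beside the 3 points. The groups lie apart by a wide margin in *Glul* and *Slc1a3*, and by little in *Glud1*, *Gpt2* and *Slc38a1*.

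The profile over the 6 libraries nearest to that of *Glul* was that of *Vdr*, the vitamin D receptor gene, among 10557 other genes with a mean of at least 100. Likeness was the root mean square difference of log2 values, each centred on the vehicle mean, and it was 0.0674 for *Vdr*. *Limch1* (0.0902), *Igdcc3* (0.0981), *Ehd3* (0.104) and *Mmp11* (0.112) followed. Their log2 fold changes lay between 1.82 and 2.00. All of these values come from the same 6 libraries, so the measure mostly reflects an equal size of the treatment difference.

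The SLC1 family holds carriers of acidic amino acids, which take up glutamate and aspartate, and the neutral amino acid exchangers encoded by *Slc1a4* (ASCT1) and *Slc1a5* (ASCT2). *Slc1a3* (ENSMUSG00000005360, chromosome 15, 8634124 to 8710764, minus strand) encodes the glutamate transporter GLAST and was the member that fell. Its normalized counts were 3398, 3993 and 3429 with vehicle and 1761, 1753 and 1759 with corticosterone. The corticosterone libraries were nearly equal, and all lay below every vehicle library. They came from 1645, 1587 and 1375 reads, whose counting error alone would usually leave a wider spread. Their closeness is thus not read as a trait of the group. The log2 fold change was -1.03 ± 0.06 (SE, adjusted p = 1.29e-09 by limma), with a 95% interval of -1.15 to -0.91. Its size lies close to the fold limit of the stricter call. It was -0.96 without vehicle replicate 2, the highest vehicle library, so that *Slc1a3* then no longer passed a log2 fold change of 1, while its adjusted p stayed under 0.05 with any one library left out.

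*Slc1a5* (ENSMUSG00000001918, chromosome 7, 16781340 to 16798274, plus strand), the main glutamine importer of many proliferating cells, had 1812, 1727 and 1737 with vehicle and 2571, 2768 and 2744 with corticosterone. Every corticosterone library was higher, with a log2 fold change of 0.61 ± 0.05 (SE, adjusted p = 6.95e-08 by limma). *Slc1a4* (ENSMUSG00000020142, chromosome 11, 20302180 to 20332713, minus strand), an exchanger of alanine, serine and related amino acids, had 2591, 2882 and 2870 with vehicle and 3721, 3934 and 3734 with corticosterone. Its log2 fold change was 0.45 ± 0.05 (SE, adjusted p = 4.07e-06 by limma), and again the groups did not overlap. The log2 ratio of *Slc1a5* to *Slc1a4* was -0.66 ± 0.12 with vehicle and -0.50 ± 0.05 with corticosterone (SD, n = 3 each). The difference was 0.16, its 95% interval of -0.049 to 0.38 included 0, and the treatments overlapped (two-sided exact permutation test, p = 0.2, and 0.33 after adjustment over 5 pairs of genes). Ratios within a library do not depend on the scaling between libraries.

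A listed relative, *Slc1a6*, which encodes the glutamate carrier EAAT4 best known from Purkinje cells, went the other way from *Slc1a3*. It had 282, 206 and 199 with vehicle and 504, 489 and 527 with corticosterone, a log2 fold change of 1.16 ± 0.11 (SE, adjusted p = 9.44e-07 by limma). Per kb of annotated exon, the level of *Slc1a3* went from 422 ± 39.2 to 206 ± 0.511 and that of *Slc1a6* from 106 to 236, in normalized counts per kb. The summed level of the 5 acidic amino acid carriers was 532 ± 34.4 with vehicle and 444 ± 10.1 with corticosterone per kb (SD, n = 3 each). *Slc1a3* made up 79.4 ± 4.07% of that sum with vehicle and 46.4 ± 0.981% with corticosterone, and *Slc1a6* 20.0 ± 4.07% and 53.0 ± 0.785%. These shares depend on the annotated exon lengths, 8537 bases for *Slc1a3* and 2152 for *Slc1a6*. Before division by length, *Slc1a3* stayed above *Slc1a6* with corticosterone, at a mean of 1758 against 507 normalized counts. Which transcript forms were expressed was not tested. The summed level of *Slc1a4* and *Slc1a5* was 1.43 times as high with corticosterone, at 1613 ± 50.9 against 1130 ± 30.9 per kb (SD, n = 3 each). The treatments did not overlap in any of these sums and shares, which were chosen after the values of the carriers were seen and are given as a description.

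**Figure D3:**
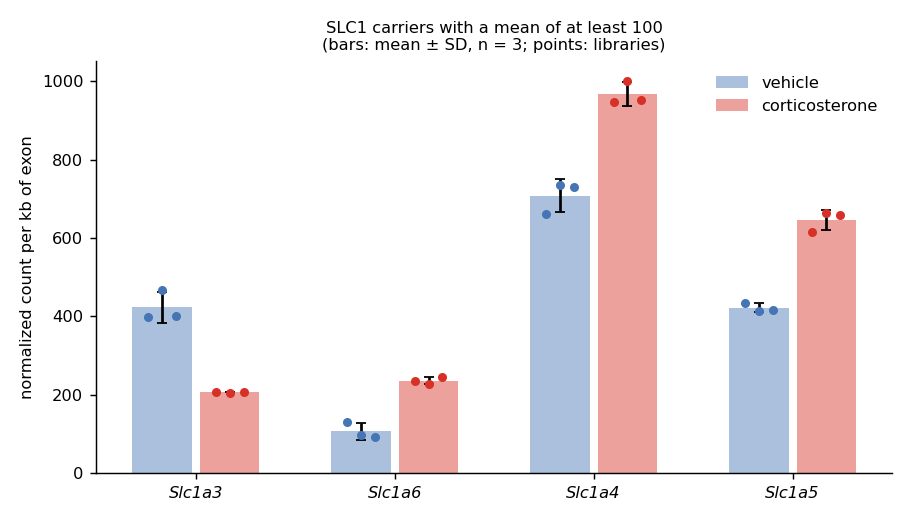
Level of the 4 SLC1 carriers with a mean normalized count of at least 100, in normalized counts per kb of annotated exon (y axis), for vehicle (blue) and corticosterone (red), as mean ± SD (bars) and single libraries (points). With corticosterone *Slc1a3* lies below *Slc1a6* per kb, though not in normalized counts before division by length. *Slc1a4* and *Slc1a5* both lie above their vehicle levels.

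*Slc38a1* (ENSMUSG00000023169, chromosome 15, 96571418 to 96642913, minus strand), which encodes the glutamine carrier SNAT1, was barely detected. It had 5.68, 10.0 and 6.21 normalized counts with vehicle and 5.35, 2.21 and 5.12 with corticosterone, from 2 to 13 reads per library. The groups did not overlap, but the lowest vehicle and the highest corticosterone library, with 7 and 5 reads, differed by less in normalized counts than 1 read is worth. The log2 fold change of -0.83 did not pass the test (limma adjusted p = 0.51), and its 95% interval of -2.27 to 0.61 includes changes of either sign. The related importer *Slc38a2* (SNAT2) had 2607 ± 202 and 2608 ± 147 (SD, n = 3 each). Its log2 fold change was 0.0018, with a 95% interval of -0.12 to 0.12 (limma adjusted p = 0.99). The log2 ratio of *Slc38a1* to *Slc38a2* differed by -0.83 between treatments, with a 95% interval of -2.32 to 0.65 (two-sided exact permutation test, p = 0.1, the least this design can give, and 0.25 adjusted), and rests on the few reads of *Slc38a1*. Of the 9 SLC38 genes with a value, *Slc38a4* rose from 28.8 ± 1.97 to 63.0 ± 0.935 (SD, n = 3 each), or by 1.13 on the log2 scale (limma adjusted p = 0.0011). *Slc38a7*, a lysosomal glutamine carrier, was called higher by 0.27 on the log2 scale (limma adjusted p = 0.046), and it kept that call in 1 of the 6 fits without a library.

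The aspartate aminotransferases move amino groups between glutamate and aspartate and are part of the malate-aspartate shuttle. The mitochondrial enzyme gene *Got2* (ENSMUSG00000031672, chromosome 8, 95864134 to 95888547, minus strand) had 2011, 2156 and 2136 with vehicle and 2489, 2483 and 2539 with corticosterone. Its log2 fold change was 0.25 ± 0.05 (SE, adjusted p = 6.69e-04 by limma). The cytosolic enzyme gene *Got1* (ENSMUSG00000025190, chromosome 19, 43499752 to 43524605, minus strand) had 903, 883 and 915 with vehicle and 1051, 996 and 1108 with corticosterone. Its log2 fold change was 0.22 ± 0.06 (SE, adjusted p = 0.0106 by limma). Both rises were small, and in both genes every corticosterone library exceeded every vehicle library. The call of *Got1* was lost without vehicle replicate 3 (limma adjusted p = 0.052), without corticosterone replicate 1 (0.052), without corticosterone replicate 3 (0.068), and with upper-quartile scaling (0.095). Without a variance trend in the fit, both *Got1* (limma adjusted p = 0.15) and *Got2* (0.086) lost their calls. The log2 ratio of *Got1* to *Got2* differed by -0.031 between treatments, with a 95% interval of -0.17 to 0.11 (two-sided exact permutation test, p = 0.6, adjusted p = 0.75).

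*Glud1* (ENSMUSG00000021794, chromosome 14, 34310727 to 34345265, plus strand), which encodes glutamate dehydrogenase, had 3099, 2827 and 3208 with vehicle and 3355, 3326 and 3276 with corticosterone. The groups did not overlap, yet the log2 fold change of 0.13 did not pass the test (limma adjusted p = 0.097), with a 95% interval of 0.023 to 0.23 before adjustment. *Gpt2* (ENSMUSG00000031700, chromosome 8, 85492576 to 85527560, plus strand), which encodes the mitochondrial alanine aminotransferase, had 289, 289 and 287 with vehicle and 272, 245 and 262 with corticosterone. Its log2 fold change of -0.15 did not pass the test either (limma adjusted p = 0.29), and a fall of more than 0.33 log2 units lies outside its 95% interval. The cytosolic counterpart *Gpt* had 101 ± 18.4 and 87.2 ± 13.6 (SD, n = 3 each), and the log2 ratio of *Gpt2* to *Gpt* differed by 0.052, with a 95% interval of -0.57 to 0.67 (two-sided exact permutation test, p = 1, also when adjusted). In all 9 genes the treatments did not overlap, which was also so for 29.6% of all genes and for 43.8% of those with a mean of at least 10.

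**Figure D4:**
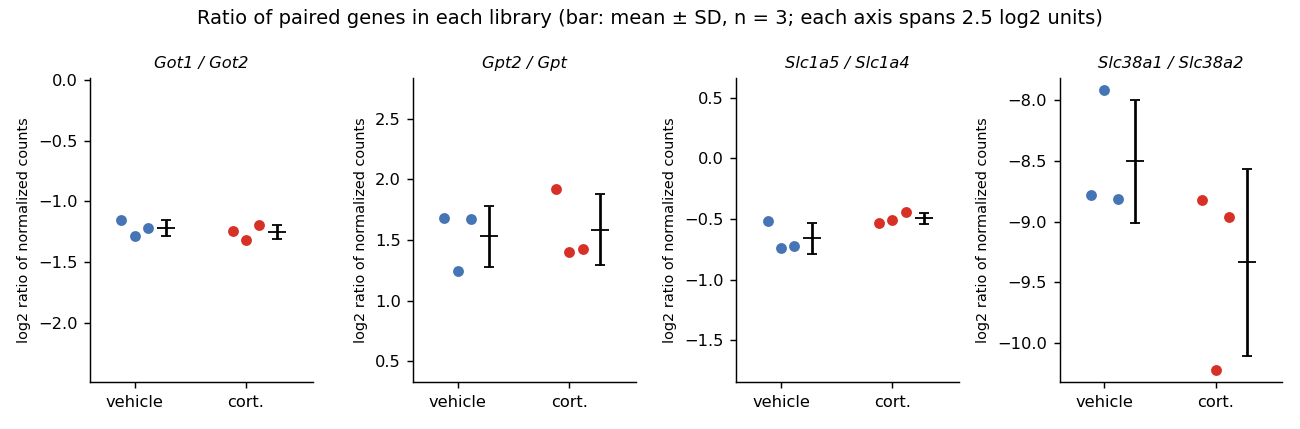
Log2 ratio of the normalized counts of 4 pairs of genes in each library (y axis, each spanning the same range of log2 units), for vehicle (blue) and corticosterone (red), with mean ± SD. The ratios of *Got1* to *Got2*, *Gpt2* to *Gpt* and *Slc1a5* to *Slc1a4* overlapped between treatments, and that of *Slc38a1* to *Slc38a2*, with few reads, did not.

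Levels between genes were compared per kb of annotated exon. With vehicle, *Glud1* (723 per kb) and *Slc1a4* (708) were highest and overlapped, *Got2* (436), *Slc1a3* (422) and *Slc1a5* (421) overlapped as neighbours, and *Got1* (355), *Glul* (170), *Gpt2* (51.1) and *Slc38a1* (0.424) followed without overlap. With corticosterone, *Slc1a4* (967) was highest, followed by *Glud1* (788), and *Slc1a5* (646) and *Glul* (644) overlapped. *Got2* (519), *Got1* (414), *Slc1a3* (206), *Gpt2* (46.0) and *Slc38a1* (0.245) came below without overlap. By mean level per kb, *Glul* thus moved from the seventh place to the fourth, and *Slc1a3* from the fourth to the seventh. The places of overlapping neighbours cannot be told apart, and the order depends on the annotated exon lengths.

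The wider pathway was followed in lists of 102 genes, of which 83 had a value here and 62 a mean of at least 10. Outside the 9 genes, 14 of 74 were called higher and 4 lower, and 54 of the 74 had a mean of at least 10. In the separate fit of genes with such a mean, 31.1% of all were called. There, 14 listed pathway genes outside the 9 were higher and 5 lower. In that separate fit the share of the pathway is near that of all genes. The lists that follow are counted in the main fit, where 16.7% of all genes were called. The shares of the enzyme lists are near the 31.1%, which is from the other fit. All these counts are given as descriptions. The median log2 fold change of all 83 was 0.059. Among the enzymes that use the amide nitrogen of glutamine, 3 of 11 were higher and 1 was lower, with 10 of the 11 at a mean of at least 10. *Cad*, which starts pyrimidine synthesis, rose from 4375 ± 119 to 5473 ± 7.10 (SD, n = 3 each), or by 0.32 on the log2 scale (limma adjusted p = 1.38e-05). The asparagine synthetase gene *Asns* rose by 0.33 on the log2 scale (limma adjusted p = 0.0015) and *Ctps2*, a CTP synthase gene, by 0.18 (limma adjusted p = 0.037), whereas *Gfpt1*, the entry to the hexosamine route, fell by 0.28 (limma adjusted p = 5.82e-04). *Ctps2* kept its call in 1 of the 6 fits without a library, and the other 3 in every one.

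Among 17 measured genes of glutamate exchange, 4 were higher, *Got1* and *Got2* among them, and 1 was lower, with 16 of the 17 at a mean of at least 10. *Abat*, which encodes GABA transaminase and forms glutamate as GABA is broken down, rose from 297 ± 33.3 to 726 ± 18.7 (SD, n = 3 each), or by 1.30 on the log2 scale (limma adjusted p = 7.87e-09). The cytosolic branched-chain aminotransferase gene *Bcat1*, whose enzyme forms glutamate from leucine, isoleucine and valine, fell from 1404 ± 100 to 828 ± 25.6 (SD, n = 3 each), or by 0.76 on the log2 scale (limma adjusted p = 1.01e-07). Of 8 genes that lead from glutamate to glutathione or recycle it, *Gclc*, the catalytic subunit of the rate-limiting ligase, rose by 0.85 (limma adjusted p = 3.33e-06) and *Ggt5* by 0.52 (limma adjusted p = 0.0077), the latter with its call lost in 2 of the 6 fits without a library, where its adjusted p rose to at most 0.064. The modifier subunit gene *Gclm* had a log2 fold change of 0.059 (limma adjusted p = 0.60).

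**Figure D5:**
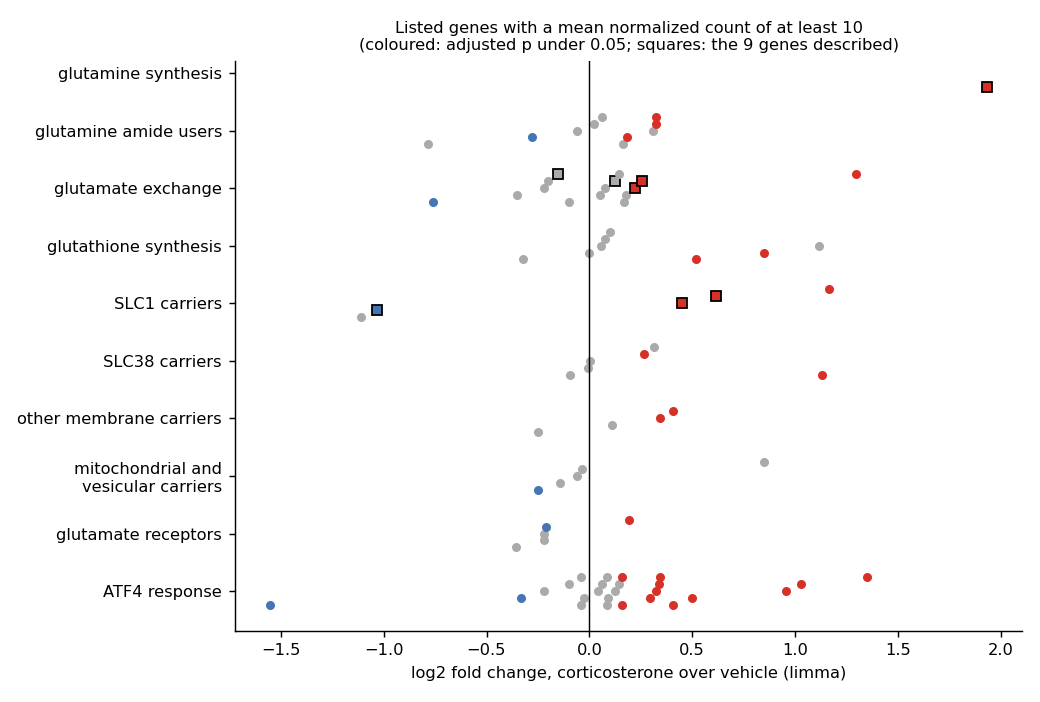
Log2 fold change (x axis) of the listed genes with a mean normalized count of at least 10, 1 row per list, coloured where the limma adjusted p was under 0.05 (red higher, blue lower) and grey elsewhere. Squares are 8 of the 9 genes, all but *Slc38a1*, whose mean is below 10, and *Glul* lies farthest to the right of them at 1.93. A few listed genes are not shown. The vertical shift within a row only separates the points.

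Of the other membrane carriers, the subunits of the LAT1 exchanger, which exports glutamine for leucine, moved together. *Slc7a5* rose from 1634 ± 56.2 to 2071 ± 14.9 and its heavy chain *Slc3a2* from 3981 ± 87.0 to 5283 ± 132 (SD, n = 3 each), log2 fold changes of 0.34 and 0.41 (limma adjusted p = 4.44e-05 and 1.40e-06). Of 8 mitochondrial and vesicular carriers, the aspartate-glutamate carrier gene *Slc25a13* fell by 0.25 (limma adjusted p = 0.022), a call kept in 1 of the 6 fits without a library. Among 13 measured glutamate receptor genes, 5 had a mean of at least 10. *Gria3*, an AMPA receptor subunit gene with 1343 ± 82.1 and 1536 ± 75.1 (SD, n = 3 each), rose by 0.19 (limma adjusted p = 0.027), and the kainate receptor subunit gene *Grik5* fell by 0.21 (limma adjusted p = 0.036). These calls were kept in 2 and 1 of the 6 fits without a library. The NMDA receptor subunit gene *Grin2a* had no reads with vehicle and 8 to 11 reads per corticosterone library, at least 3.55-fold higher against a floor of 3 reads in a single vehicle library (limma adjusted p = 3.68e-04).

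Some reads could be shared with other genes. When the transcripts were read in windows of 31 bases, 30.9% of the windows of *Got2*, 20.4% of those of *Glul* and 10.4% of those of *Glud1* also lay in transcripts of another gene, mostly pseudogenes, against at most 6.94% in the other members. The pseudogenes sharing the most, *Gm10874*, *Glns-ps1* and *Glud-ps*, had at most 4, 2 and 14 reads in a library, so few reads were counted there. How the authors treated reads that fit several places, and whether they counted by strand, is not given in the sources used here. The last point touches *Got2*, which shares 434 exon bases with *Gm45760* on the opposite strand, and *Glul*, which shares 116 with *Teddm2*. *Teddm2* had 7.37 ± 3.38 normalized counts with vehicle and 32.2 ± 7.81 with corticosterone (SD, n = 3 each), and its reads and those of *Glul* cannot be told apart there without strand.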

How the data were processed

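RNA of 3 vehicle-treated and 3 corticosterone-treated MC3T3-E1 cultures was sequenced commercially on an Illumina platform, from libraries of the NEB Next Ultra kit. The submitters' processing notes name mm10, and the aligner, counter and annotation are not given in the sources used here. The authors deposited 1 signal value per gene and library, in a table named FPKM. All values (100% in each library, tolerance 0.01 read) were whole multiples of 1 step that did not depend on gene length, so they are read counts divided by 1 size factor per library (0.782 to 1.30), called normalized counts. A gene with 3 reads, the floor used, has 2.32 to 3.84. It covers counting error only.

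The 9 genes, the pathway lists, the pairs of genes and the alternatives were chosen with earlier results of these data known. The main test was limma 3.58.1 in R 4.3.3 (lmFit and eBayes with a variance trend) on log2(value + 0.1), where small values are compressed, with a minimum mean of 0.1, which removed no gene. It was planned for FPKM values and kept. Named besides the 9 genes are, per list, up to 4 called genes with a mean of at least 10, the paired genes, *Grin2a*, markers, and the 5 profiles nearest to *Glul*. *Gclm*, *Chac1*, *Trib3*, *Teddm2* and the sums and shares of SLC1 carriers were chosen after their values were seen. *Atf4* is also named outside this rule. Some listed genes and 1 pair are not reported here. Ratios were compared with two-sided exact permutation tests. p-values rest on the spread between 3 cultures per group, which the study calls biological replicates. The main limma fit draws each gene's variance toward a trend over all genes, so its p-values do not rest on that gene's cultures alone. Without the trend, each gene's variance is still drawn toward a value common to all genes. The limma adjusted p was then 0.0029 for *Glul* and 0.0070 for *Slc1a3*.

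Alternatives were other pseudocounts, filters, scalings and prior variances, a replicate block, each library left out, and edgeR 4.0.16 and DESeq2 1.42.0 on the recovered reads. Fits were tested on simulated data with known changes. Symbols, positions and union exon lengths came from GENCODE M21 of GRCm38, which gave symbols for 23983 of the identifiers. Promoters came from RefSeq. Python 3.11.15 was used for the rest.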

Additional observations from a re-analysis of the deposited data

How the results depend on the processing

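Over 22 alternatives each, *Glul*, *Slc1a5* and *Slc1a4* were called higher and *Slc1a3* lower in all, with log2 fold changes of 1.83 to 2.00, 0.55 to 0.65, 0.38 to 0.48 and -1.10 to -0.96, and no gene of the 9 changed direction. Without a variance trend, 3 of the 9 genes were called higher in place of 5, 1633 of all genes in place of 4010, and 1 listed pathway gene was lower in place of 4. *Got1* (adjusted p = 0.15) and *Got2* (0.086) lost their calls there. Without a filter, edgeR called 7 listed pathway genes lower. *Glud1* was called with a robust prior variance (adjusted p = 0.037) and with edgeR and the replicate block (0.036). The cause of these shifts was not tested. With each library left out, 1 to 2 of the 9 genes passed a log2 fold change of 1, 2 to 4 listed pathway genes were lower, and 2567 to 3484 genes were called, fewest without vehicle replicate 3.

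Replicate numbers are shared by both treatments in the labels. Deviations of libraries of the same number had correlations of -0.044, 0.0014 and 0.023 over 13880 genes, so no shared replicate effect was seen. Such correlations cannot show whether the cultures were set up in pairs. With the replicate block, 5 of the 9 genes were higher and 1 was lower, and 3905 of all genes were called. Of all called genes, 50.9% were higher, against 34.2% with upper-quartile scaling and 40.3% with scaling to the same total. Those scalings moved the median log2 fold change of genes with a mean of at least 10 from -0.0054 to -0.074 and -0.047. Of the listed pathway genes outside the 9, 11 were higher and 5 lower with upper-quartile scaling. With scaling to the same total, 11 were higher and 6 lower, against 14 and 4 in the main fit. DESeq2 and edgeR on the recovered reads each called 5 of the 9 genes higher and 1 lower. *Slc38a1* has no value under edgeR with a filter or with a mean of at least 10, since too few reads were counted.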

Other observations

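Genes of the amino acid response that ATF4 directs were followed as a neighbouring list, since it shares genes such as *Asns*, *Slc7a5* and *Slc3a2* with the glutamine pathway. Of its 26 genes, 25 of which had a mean of at least 10, 11 were higher and 2 were lower after corticosterone (limma adjusted p under 0.05), with a median log2 fold change of 0.11. In the separate fit of genes with such a mean, which is not the fit behind these counts, 31.1% of all were called in either direction. *Atf4* itself rose from 2786 ± 168 to 3409 ± 90.5 normalized counts (SD, n = 3 each), which on the log2 scale is 0.29 (limma adjusted p = 3.59e-04). *Psph*, the last enzyme of serine synthesis, rose from 808 ± 53.7 to 2056 ± 42.5 (SD, n = 3 each), which on the log2 scale is 1.35 (limma adjusted p = 4.75e-11), and the cationic amino acid carrier gene *Slc7a3* rose by 1.03 (limma adjusted p = 1.07e-04). The mTORC1 inhibitor gene *Ddit4* rose by 0.96 (limma adjusted p = 7.21e-10), and the lipoprotein receptor gene *Vldlr* fell by 1.55 (limma adjusted p = 9.00e-07). The stress markers *Chac1* and *Trib3* had log2 fold changes of 0.085 and 0.059 (limma adjusted p = 0.85 and 0.95).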
